A study of Mus musculus with 55 samples.

Results

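The nuclear genes for subunits of the respiratory chain and of ATP synthase were followed through 3 hindlimb muscles of dystrophic and normal mice. They were taken by symbol (Nduf with a letter a, b, c, s or v and a number, Sdha to Sdhd, Uqc, Cox4 to Cox8, and Atp5, without pseudogenes), which gave 87 of the 24453 genes in the deposited table: 37 of complex I, 4 of complex II, 11 of complex III, 18 of complex IV and 17 of complex V. Complexes were assigned by symbol alone, so that all Nduf genes, Ndufa4 and Ndufa4l2 among them, stand under complex I. A gene's complex in the counts and figures is therefore that of its name. The symbol rule also brought in Uqcc1, Uqcc2 and Uqcc3, which are assembly factors of complex III, and Atp5s and Atp5sl, which are named after ATP synthase but are not among its subunits. These were counted under complexes III and V. No gene of the mitochondrial genome is in the table (0 of 24453), so all that follows concerns the nuclear-encoded part. The muscles were the flexor digitorum brevis (FDB), the extensor digitorum longus (EDL) and the soleus (SOL) of mdx mice, which carry a mutation in Dmd, the dystrophin gene, and of wild-type (wt) mice, at 2 and 5 months. There were 3 FDB, 4 EDL and 4 SOL libraries from mdx mice at 2 months and 7, 6 and 7 from mdx mice at 5 months, and each of the 6 wt groups had 4. The labels give no strain, sex or animal, so p-values measure only the spread between these libraries, which may be technical.

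The respiratory chain passes electrons from NADH (complex I) and succinate (complex II) through complexes III and IV to oxygen and pumps protons across the inner mitochondrial membrane, and ATP synthase (complex V) uses the proton gradient to make ATP. Slow oxidative fibres hold more of this machinery than fast glycolytic fibres. Complex IV is cytochrome c oxidase, and several of its small subunits come in a form of heart and skeletal muscle (Cox6a2, Cox7a1, Cox8b) and a form found in most other tissues (Cox6a1, Cox7a2, Cox8a).

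Levels are RPKM, reads scaled to transcript length and to the mapped reads of the library, as deposited. Dmd RNA lay between 1.54 and 3.91 RPKM in mdx libraries, against 6.42 to 12.1 RPKM in wt libraries, without overlap. All 10 genes of a slow-fibre list were higher in SOL than in EDL of wt mice at both ages. Steps between low values put the depth at 20.1 to 66.3 M reads (M, mega) per library. The 5-month mdx libraries fall into blocks by library number, and libraries with numbers from ns49 on are all from 5-month mdx muscle. All wt and 2-month libraries have numbers up to ns48, so that in the later blocks library number and genotype cannot be told apart; 3 FDB and 2 EDL libraries of 5-month mdx muscle lie in the range of the wt libraries. In SOL the 4 libraries ns49 to ns53 stood apart in their sums: their RPKM summed over all genes to 375905 to 401165, against 303869 to 346509 in the other 51. Their depth was 21.2 to 25.7 M reads, against 44.2 to 59.2 M in the 3 SOL mdx libraries from ns54 and 20.1 to 38.4 M in 2-month mdx EDL. The 5-month SOL results are therefore given for each block. Of the 87 genes, 84 passed the filter of a mean of 0.5 RPKM; Cox6b2, Cox7b2 and Cox8c, forms known from testis, did not; Cox6b2 averaged 0.43 RPKM over all libraries, and Cox7b2 and Cox8c were close to 0.

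In wt mice the genes were at their highest in SOL. Their RPKM summed to 26441 ± 1391 in SOL, 19137 ± 729 in EDL and 17031 ± 859 in FDB at 2 months (SD, n = 4 each), and to 26671 ± 1904, 19988 ± 1622 and 16733 ± 425 in the same order at 5 months. The 3 muscles did not overlap at 2 months or at 5 months. The 87 genes made up 8.46% of all RPKM in SOL at 2 months, 5.93% in EDL and 5.15% in FDB. The catalytic beta and alpha subunits of ATP synthase led, with Atp5b at 1567 ± 65.8 RPKM in SOL, 1283 ± 45.4 in EDL and 1074 ± 53.3 in FDB, and Atp5a1 at 1047 ± 46.8, 786 ± 21.2 and 689.8 ± 32.8 in the same muscles. Cox6a2, the muscle form of a cytochrome c oxidase subunit, came next in SOL and EDL, with 946 ± 26.9 RPKM in SOL, 591 ± 17.6 in EDL and 443 ± 22.5 in FDB.

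Set against EDL, SOL had higher levels of 63 of the 84 genes at 2 months and 61 at 5 months, where 32.5% and 36.7% of all 12541 genes tested were higher (limma on log2(RPKM + 1), Benjamini-Hochberg adjusted p under 0.05 over all genes, as in every comparison below). Fewer were lower, 0 at 2 months and 1 at 5 months, where 19.8% and 17.7% of all genes were. The median difference was 0.48 and 0.37 on the log2 scale, against 0.06 and 0.09 over all genes tested. Ndufb3, an accessory subunit of complex I, differed by 0.98 ± 0.09 (log2 difference ± SE) at 2 months and 1.16 ± 0.09 at 5 months (adjusted p = 2.64e-12 and 9.75e-15). Its level was 178, 160.2, 178 and 172 RPKM in SOL, against 84.2, 85.4, 90.3 and 87.5 RPKM in EDL, at 2 months. Cox8a was likewise higher, by 1.10 and 0.93, and Sdhc, a membrane anchor of complex II, by 0.83 and 0.81. Sdha, the catalytic flavoprotein of the same complex, had 343 ± 18.6 RPKM in SOL and 344 ± 12.9 in EDL at 2 months and did not pass the test at either age, unlike the other 3 genes of the complex. Uqcc1 was the gene lower in SOL at 5 months (log2 difference -0.25 ± 0.07, adjusted p = 0.00225). The count of genes higher in SOL was 31 and 23 with quantile normalization at 2 and 5 months, and 32 at 5 months with median-of-ratios scaling. The shares of all genes called under these scalings are not given here.

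FDB stood below the other muscles. Against SOL, 69 of 84 genes were lower in FDB at 2 months and 72 at 5 months (background 18.1% and 19.0% of all genes), and 0 were higher at each age, although 52.2% and 49.5% of all genes were. At an unadjusted p under 0.05 the count higher was also 0. Against EDL, 28 and 37 were lower in FDB (15.0% and 15.1% of all genes) and 7 and 8 were higher (56.7% and 57.6%). Genes of catalytic and iron-sulfur subunits were among those lower. Sdha fell below its EDL level by 0.79 at 2 months and 0.83 at 5 months on the log2 scale, Ndufs1, the large iron-sulfur subunit of complex I, by 0.74 and 0.70, and Ndufs8, another iron-sulfur subunit, by 0.61 and 0.78. The lowest value was that of Uqcc1, at -1.17 and -1.37. Cox8a went the other way, with 58.4, 54.3, 50.1 and 52.2 RPKM in FDB, against 21.2, 22.9, 20.7 and 22.5 RPKM in EDL, at 2 months (log2 difference 1.26 ± 0.18, adjusted p = 2.38e-08). Markers of other cells moved with these comparisons. At 2 months 10 of 10 Schwann cell genes were higher in FDB than in EDL and 10 of 10 higher than in SOL, and they summed to 305 to 417 RPKM in FDB, 71.5 to 109.7 RPKM in EDL and 54 to 61.3 RPKM in SOL. Among 7 erythroid symbols, Hbb-b2 and Hbb-bt had the same values in every comparison, so counts and sums of this list hold them under both. Of the 7, 7 were lower in FDB than in SOL and 7 higher in SOL than in EDL at 2 months. They summed to 104 to 219 RPKM in FDB, 204 to 214 RPKM in EDL and 345 to 598 RPKM in SOL. Their part in the result was not tested.

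**Figure D1:**
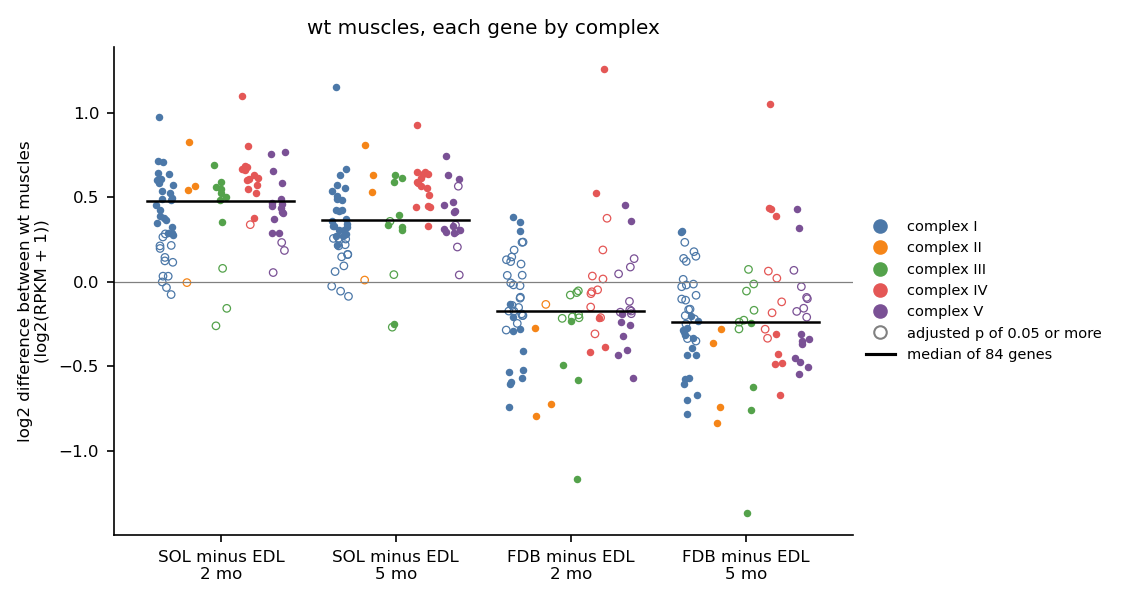
Log2 differences between wt muscles on log2(RPKM + 1) for each of the 84 genes tested (points, coloured by complex, filled where the adjusted p was under 0.05), with the median as a line. SOL minus EDL lies mostly above 0 in all complexes, with medians of 0.48 and 0.37, and FDB minus EDL mostly below, with medians of -0.17 and -0.24.

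In FDB of mdx mice the genes were lower as a group at both ages. At 2 months 22 of 84 fell (4.6% of all genes) and 0 rose (30.0%), with a median log2 difference of -0.21 against 0.13 over all genes. At 5 months 41 fell (9.46% of all genes) and 3 rose (53.1%), with medians of -0.21 and 0.18. Genes assigned by symbol to each of the 5 complexes fell at 5 months: 19 of 37 for complex I, 4 of 4 for complex II, 5 of 11 for complex III, 4 of 15 for complex IV and 9 of 17 for complex V. Among these falls were Uqcc1 under complex III and Atp5s and Atp5sl under complex V, which are not subunits. In no gene of complexes II, III or V was a rise called there. In 61 of 84 genes every mdx library lay below every wt library at 2 months (8.44% of all genes) and in 2 above (44.3%); at 5 months 38 lay below (6.19%) and 2 above (38.0%). Leaving out 1 library, the count of genes lower at 2 months was 8 without ns01 and 11 without ns12. Since these are whole muscles, fewer muscle cells and less RNA per cell cannot be told apart.

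Among the subunits of complex I, Ndufv1, which binds NADH, fell in FDB by 0.35 at 2 months and 0.27 at 5 months on the log2 scale. Its level was 136, 140.3 and 139 RPKM in mdx FDB, against 176, 168, 175 and 186 RPKM in wt FDB, at 2 months (log2 difference -0.35 ± 0.07, adjusted p = 0.000219). Every mdx library was below every wt library. Ndufb5 and Ndufb9, accessory subunits, fell at 5 months by 0.43 and 0.42. Sdha had 154, 159.9 and 161 RPKM in mdx FDB, against 179, 197, 201 and 217 RPKM in wt FDB, at 2 months (log2 difference -0.32 ± 0.06, adjusted p = 0.000302), and Sdhb, the iron-sulfur subunit of complex II, fell by 0.31 at 2 months and 0.23 at 5 months. Of complex III, the Rieske protein gene Uqcrfs1 fell by 0.25 and 0.28 at the 2 ages. Of complex V, Atp5a1 fell by 0.31 and 0.20, and Atp5g1, one of 3 genes for the membrane ring subunit c, by 0.37 and 0.35.

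The 5-month FDB libraries differed by block. In the 4 mdx libraries from ns54, 72 of 84 genes were lower than in wt and 3 higher (median -0.30; 11% and 57.3% of all genes), and in the 3 libraries to ns48 35 were lower and 4 higher (median -0.09; 10.4% and 44.4%). Set directly against each other, 52 genes were lower and 1 higher from ns54 (6.99% and 22.7% of all genes). Schwann cell markers moved with this split: 10 of 10 were higher than in wt in the libraries from ns54 and 1 of 10 in those to ns48, and their summed level was 325 to 441 RPKM from ns54, 127 to 146 RPKM to ns48 and 102 to 166 RPKM in wt. Endothelial and smooth muscle markers did so too (9 of 9 higher from ns54, 2 of 9 to ns48). Of 7 erythroid symbols, Hbb-b2 and Hbb-bt with the same values, 7 were higher than in wt from ns54 and 3 to ns48. They summed to 479 to 695 RPKM from ns54, 158 to 439 RPKM to ns48 and 141 to 223 RPKM in wt. Of 8 adipocyte genes, 6 were higher from ns54 (median 1.83) and 3 to ns48 (median 0.53), but their sums overlapped wt in both blocks. The part of these in the result was not tested. A list of 12 genes of the contractile apparatus and muscle membrane, Acta1 and Ckm among them, had a median difference of -0.20 at 2 months and -0.22 at 5 months, close to that of the 84. Scaled to those genes, 0 of 84 fell and 0 rose at 2 months (median -0.07), and 0 fell and 5 rose at 5 months (median -0.01). With median-of-ratios scaling over all genes, which takes the median of all genes to -0.03 and -0.06, 51 and 80 fell and 0 and 1 rose. The shares of all genes called under either scaling are not given here, so these counts describe the 84 genes only.

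EDL gave a mixed picture. At 2 months 17 of 84 genes fell (8.69% of all genes) and 1 rose (41.6%), with a median of -0.08 against 0.14 over all genes. At 5 months 15 fell (8.52%) and 5 rose (60.2%), with medians of -0.02 and 0.23. Ndufb5 had between 118 and 134 (median 128, n = 6) RPKM in mdx EDL, against 154, 166, 189.7 and 176 RPKM in wt EDL, at 5 months (log2 difference -0.41 ± 0.10, adjusted p = 0.000569). Ndufa12, an accessory subunit of complex I, fell by 0.29 at 2 months and 0.30 at 5 months, and Cox5a, a subunit of cytochrome c oxidase with a single nuclear gene, fell by 0.27 at 5 months. The genes that rose at 5 months were Cox6a1, Cox8a, Cox7a2l, Uqcc3 and Ndufa13. Ndufa13, a complex I subunit also known as GRIM-19, had a log2 difference of 0.33 ± 0.11 (adjusted p = 0.00909), and of -0.052 with median-of-ratios scaling. Cox7a2l, which links complexes III and IV in supercomplexes, had 0.20 ± 0.07 (adjusted p = 0.0121), and -0.17 with that scaling, under which 58 of 84 fell and 0 rose. The share of all genes called under that scaling is not given here. Leaving out 1 library, the count of genes lower at 2 months was 8 without ns35 or without ns36 and 9 without ns43, and at 5 months 8 without ns47 and 9 without ns48. In the mdx libraries to ns48 26 were lower and 9 higher than wt (9.33% and 52.5% of all genes), and in those from ns54 17 and 16 (8.9% and 64.1%). The blocks of 2 and 4 libraries at 5 months differed from each other in 2 genes, one in each direction (0.311% of all genes lower and 0.933% higher from ns54). Slow-fibre genes moved with mdx EDL: 8 of 10 were higher at 2 months (median 1.31), Tnni1, the slow troponin I, by 3.42 ± 0.36 (adjusted p = 2.86e-10), and 6 of 10 at 5 months (median 0.68), and 1 was lower at each age. The 10 genes summed to 149.5 to 249 RPKM in mdx EDL, against 63.3 to 65.5 RPKM in wt EDL, at 2 months, both far below wt SOL (13902 to 14454 RPKM). At 5 months the sums were 73.5 to 205 RPKM in mdx EDL and 31.6 to 72.1 RPKM in wt EDL, without overlap. Their part in the result was not tested.

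In SOL at 2 months 12 of 84 genes fell (7.68% of all genes) and 1 rose (32.3%), with a median of -0.11 against 0.10 over all genes. Sdhb had 303, 317, 316 and 314 RPKM in mdx SOL, against 355, 375, 421 and 394 RPKM in wt SOL (log2 difference -0.30 ± 0.08, adjusted p = 0.00127), with all mdx libraries below all wt libraries. Sdhc fell by 0.25, Atp5c1, the central shaft subunit gamma of ATP synthase, by 0.25 and Cox6a2 by 0.37. In 28 genes every mdx library lay below every wt library (10.1% of all genes) and in 2 above (36.2%). Leaving out 1 library, the count of genes lower was 7 without ns17, 5 without ns27 and 6 without ns28. With the spread taken without the difference between 5-month blocks, a fit chosen after the data were seen, 61 genes were lower and 2 higher in 2-month FDB, 32 lower and 4 higher in 2-month EDL, and 31 lower and 3 higher in SOL. The counts over all genes under that fit are not given here, so these describe the 84 genes only.

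**Figure D2:**
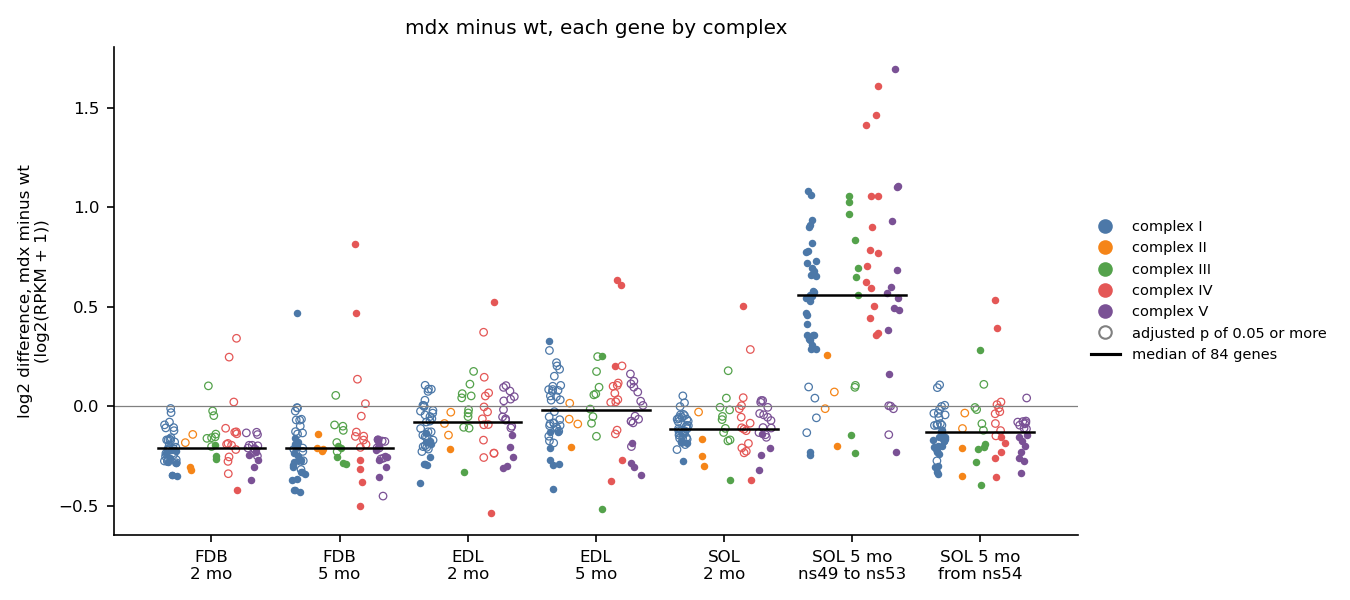
Log2 differences, mdx minus wt, on log2(RPKM + 1) for each of the 84 genes tested (points, coloured by complex, filled where the adjusted p was under 0.05), with the median as a line; SOL at 5 months is drawn once for each block of mdx libraries. Medians lie between -0.21 and -0.02 in the first 5 columns, at 0.56 for libraries ns49 to ns53 and at -0.13 for libraries from ns54.

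In SOL at 5 months the 2 blocks of mdx libraries lay on opposite sides of wt. The genes summed to 43330.2, 38765, 39077 and 40023 RPKM in mdx libraries ns49 to ns53 and to 24664, 23989 and 23799 RPKM in mdx libraries from ns54, against 28757, 25319, 24816 and 27791 RPKM in wt SOL. All 4 libraries of the first block were above all wt libraries and all 3 of the second were below. Pooled over the 7 libraries, 43 of 84 genes were called higher and 8 lower than wt (median 0.25; 52.9% and 11.3% of all genes). In libraries ns49 to ns53 66 were higher and 6 lower (52.4% and 16.2%), and in libraries from ns54 3 were higher and 42 lower (50.6% and 9.7%). The direct comparison gave 74 genes lower from ns54 and 1 higher (21.4% and 21.3%), with a median of -0.72. The pooled result thus joins a rise in 1 block to a fall in the other.

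**Figure D3:**
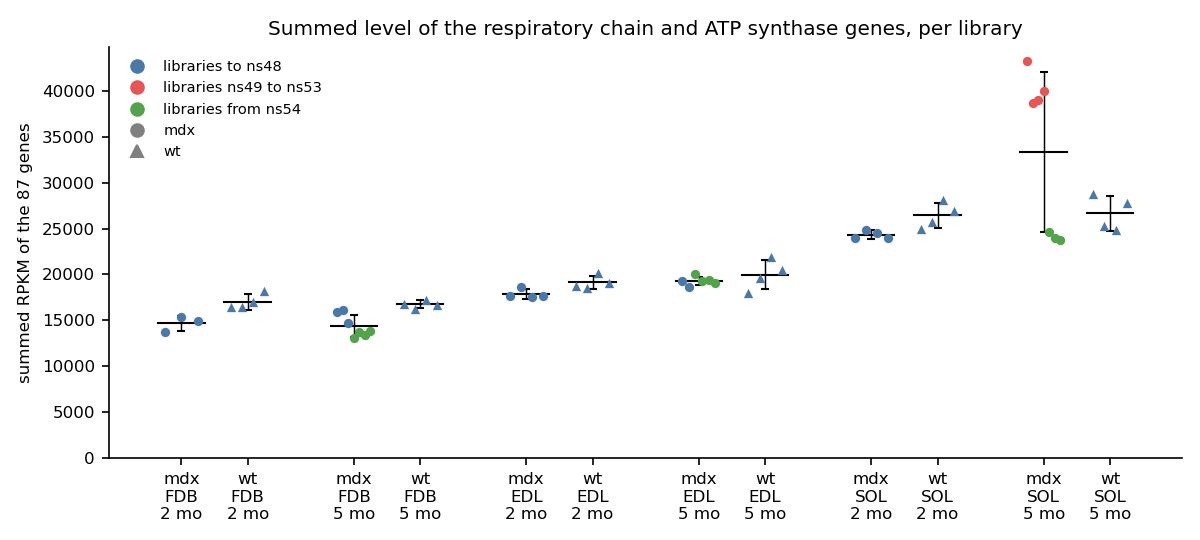
Summed RPKM of the 87 genes in each library (circles for mdx, triangles for wt, coloured by block of library numbers), with the mean as a line and the SD as a bar. The 4 SOL mdx libraries ns49 to ns53 lie between 38766 and 43330.2, above every other library, and the 3 from ns54 between 23799 and 24664, next to the 2-month SOL mdx libraries.

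Atp5k, the small subunit e of ATP synthase, had the largest difference from wt in the first block. It had 1519, 1268, 1199.8 and 1366 RPKM in mdx libraries ns49 to ns53 and 398, 379.7 and 363 RPKM in those from ns54, against 495, 393, 351 and 421 RPKM in wt SOL. The log2 difference from wt was 1.69 ± 0.08 in the first block (adjusted p = 9.79e-22) and -0.11 ± 0.09 in the second (adjusted p = 0.257). Cox8b stood 1.41 above wt in the first block and at -0.03 in the second, and Cox7a1 1.06 above and 0.23 below. Atp5b and Atp5a1, the most abundant of the genes, passed the test in neither block, with log2 differences of -0.10 ± 0.05 and -0.08 ± 0.05 in the second. Sdha was lower in the first block by 0.20, and Sdhb in the second by 0.35.

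In the libraries ns49 to ns53 the difference followed the length of the coding sequence. The 23 genes with up to 300 coding bases had a median of 0.90 and 23 were higher; the 39 with more than 300 and up to 600 bases had 0.54, with 36 higher; the 22 longer ones had 0.02, with 7 higher and 6 lower. The 11563 other genes with a coding length ran the same way, with medians of 0.63, 0.44 and 0.14. In the 3 classes 167 of 202, 966 of 1255 and 4931 of 10106 of them were higher, and 14, 70 and 1810 lower. In the libraries from ns54 the 3 classes had -0.10, -0.15 and -0.15. Across the 84 genes Spearman's rho between coding length and the difference was -0.78 for ns49 to ns53 and -0.16 from ns54, a description over genes that share libraries. With each library's trend on coding length removed, a setting chosen after the data were seen, 27 were higher and 22 lower in libraries ns49 to ns53 (median 0.01), and 2 were higher and 75 lower from ns54 (median -0.32). The counts over all genes under that setting are not given here. Erythroid genes moved with the first block: 7 of 7 symbols, Hbb-b2 and Hbb-bt with the same values, were higher than wt there and 0 of 7 from ns54. They summed to 1738 to 2357 RPKM in ns49 to ns53 and 549 to 598 RPKM from ns54, against 349.8 to 695 RPKM in wt. The part of depth, length and these markers in the result was not tested.

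**Figure D4:**
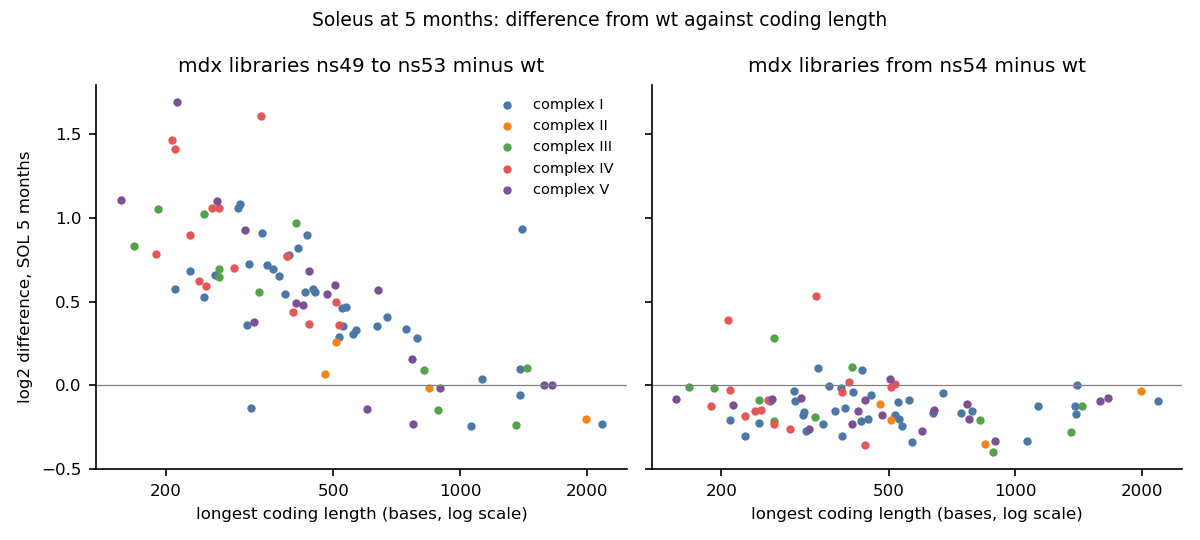
Log2 difference from wt SOL at 5 months against the longest coding length in bases (log scale) for the 84 genes, for mdx libraries ns49 to ns53 (left) and from ns54 (right), coloured by complex. On the left, short genes lie up to 1.69 above wt and the medians fall with length to 0.02 over 600 bases; on the right the medians lie between -0.15 and -0.10 in all length classes.

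Of the paired isoforms of cytochrome c oxidase, Cox6a1 and Cox6a2 separated in mdx muscle. Cox6a1, the form of most tissues, had between 54.7 and 71.8 (median 68.4, n = 7) RPKM in mdx FDB, against 37.1, 35, 37.6 and 36.4 RPKM in wt FDB, at 5 months, with no overlap (log2 difference 0.82 ± 0.17, adjusted p = 3.78e-05). It also rose in EDL at 5 months (0.61 ± 0.17, adjusted p = 0.00163), in SOL at 2 months (0.50 ± 0.19, adjusted p = 0.028) and in both SOL blocks at 5 months (1.61 and 0.53), and its differences in FDB and EDL at 2 months were 0.34 ± 0.20 and 0.37 ± 0.19 (adjusted p = 0.186 and 0.0937). Cox6a2, the muscle form, had between 307 and 347 (median 342, n = 7) RPKM in mdx FDB, against 408, 400.0, 443 and 416 RPKM in wt FDB (log2 difference -0.31 ± 0.13, adjusted p = 0.0374). It fell by 0.42 in FDB and 0.54 in EDL at 2 months, by 0.37 in SOL at 2 months, and at 5 months by 0.37 in EDL and 0.26 in the SOL libraries from ns54. In libraries ns49 to ns53 it stood 0.70 above wt. Under the 5 other scalings Cox6a1 stayed positive and Cox6a2 negative in the comparisons outside 5-month SOL; scaled to the fibre genes, Cox6a2 did not pass in FDB (-0.28 and -0.11) or in 2-month SOL (-0.29).

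The promoters of isoform genes are shown because their pairs shifted in mdx muscle to different extents. The Cox6a1 share was wholly above wt in all 6 comparisons, the Cox8a share in all but 5-month SOL, and the Cox7a2 share only in FDB. RefSeq promoters (GRCm38.p6, 250 bases before to 50 after the start) matched 72 of the 87 genes, with 78 entries. Cox6a2 was not among the genes matched, so Cox6a1 is shown without its muscle counterpart. The 200 bases before the start are given 5′ to 3′ on the gene's strand. Capitals mark matches, on either strand, to 6 motifs: GCATGCG (core of the site of NRF-1), CCGGAAG (ETS factors such as GABP), AAGGTCA (estrogen-related receptors), AAGATGG (YY1), CAGCTG (the E-box of muscle factors) and TATAAA. The printed stretches are Cox6a1 at chr5:115348959-115349158, minus strand; Cox8a at chr19:7217617-7217816, minus strand; Cox7a2 at chr9:79759854-79760053, minus strand; Cox8b at chr7:140900447-140900646, minus strand; and Cox7a1 at chr7:30183971-30184170, plus strand.
Cox6a1: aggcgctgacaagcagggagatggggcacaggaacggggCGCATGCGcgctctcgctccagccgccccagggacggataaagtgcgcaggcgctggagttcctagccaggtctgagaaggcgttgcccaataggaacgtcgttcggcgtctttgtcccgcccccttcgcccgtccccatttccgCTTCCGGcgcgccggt
Cox8a: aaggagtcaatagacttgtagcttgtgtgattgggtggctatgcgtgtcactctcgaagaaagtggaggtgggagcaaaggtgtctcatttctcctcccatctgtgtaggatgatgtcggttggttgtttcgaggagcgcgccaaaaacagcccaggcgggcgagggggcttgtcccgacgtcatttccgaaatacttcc
Cox7a2: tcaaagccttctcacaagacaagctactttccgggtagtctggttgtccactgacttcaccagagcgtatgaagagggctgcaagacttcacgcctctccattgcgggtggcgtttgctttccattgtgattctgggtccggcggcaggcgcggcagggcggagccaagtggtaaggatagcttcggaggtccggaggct
Cox8b: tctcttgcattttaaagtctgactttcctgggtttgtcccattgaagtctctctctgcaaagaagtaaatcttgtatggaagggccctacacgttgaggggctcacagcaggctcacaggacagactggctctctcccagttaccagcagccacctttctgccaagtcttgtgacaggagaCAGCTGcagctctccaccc
Cox7a1: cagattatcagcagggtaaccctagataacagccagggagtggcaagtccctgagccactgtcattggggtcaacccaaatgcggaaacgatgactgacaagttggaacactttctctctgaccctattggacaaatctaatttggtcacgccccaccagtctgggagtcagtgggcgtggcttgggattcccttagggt
Cox6a1 held the NRF-1 core, which is nearly its own reverse complement and so matched on both strands, and 1 ETS match close to its start. Cox8b held 1 E-box, and the stretches of Cox8a, Cox7a2 and Cox7a1 held none of the 6. Elsewhere in the full 300 bases, not wholly within the printed stretches, Cox8a also held the ETS motif and Cox8b TATAAA. Over the full 300 bases, the NRF-1 core was found in 11 of 78 member promoters (14.1%) and in 3.58% of all 32851; the ETS motif in 16 of 78 member promoters (20.5%) and in 8.86% of all 32851; the receptor motif in 9 of 78 member promoters (11.5%) and in 4.72% of all 32851; the YY1 motif in 14 of 78 member promoters (17.9%) and in 6.34% of all 32851; the E-box in 7 of 78 member promoters (8.97%) and in 16.3% of all 32851; and TATAAA in 8 of 78 member promoters (10.3%) and in 13.6% of all 32851. A match is a run of letters and no measured site.

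Shares of a pair were taken from RPKM. A single scaling factor per library leaves them unchanged, but quantile normalization or removal of a length trend can change them. As a share of its pair, Cox6a1 made up 15.2% ± 1.87 in mdx and 9.48% ± 0.792 in wt FDB at 2 months (mean ± SD). It made up 16.3% ± 1.29 in mdx and 8.06% ± 0.206 in wt FDB at 5 months. The shares were 10.3% ± 2.19 in mdx and 5.66% ± 0.333 in wt EDL at 2 months and 7.64% ± 1.63 in mdx and 3.89% ± 0.137 in wt EDL at 5 months. In SOL they were 8.08% ± 0.403 in mdx and 4.57% ± 0.588 in wt SOL at 2 months and 7.40% ± 0.462 in mdx and 4.18% ± 0.326 in wt SOL at 5 months. In each of the 6 comparisons every mdx library had a higher share than every wt library. Both SOL blocks at 5 months did so alike, with 7.65% ± 0.371 in libraries ns49 to ns53 and 7.06% ± 0.376 from ns54.

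Cox8a, the form of subunit VIII in most tissues, rose in mdx FDB at 5 months (0.47 ± 0.16, adjusted p = 0.00851) and in mdx EDL at 2 and 5 months (0.52 ± 0.18 and 0.64 ± 0.16, adjusted p = 0.012 and 0.000596). In EDL at 5 months it had between 24.1 and 42.6 (median 30.0, n = 6) RPKM in mdx, against 17.5, 19.5, 21.5 and 21.3 RPKM in wt, with no overlap. Cox8b, the muscle form and one of the most abundant transcripts of the complex, passed the test in none of FDB, EDL and 2-month SOL, with log2 differences between -0.34 and 0.02. The Cox8a share of the pair was 16.6% ± 1.45 in mdx and 11.7% ± 0.970 in wt FDB at 2 months and 16.3% ± 0.541 in mdx and 10.9% ± 0.322 in wt FDB at 5 months. It was 7.46% ± 1.30 in mdx and 4.45% ± 0.434 in wt EDL at 2 months and 6.09% ± 1.12 in mdx and 3.94% ± 0.0932 in wt EDL at 5 months, and 7.75% ± 0.924 in mdx and 5.53% ± 0.451 in wt SOL at 2 months. At 5 months in SOL it was 5.08% ± 0.452 in mdx libraries ns49 to ns53 and 6.40% ± 0.395 in those from ns54, against 4.84% ± 0.309 in wt, so that only the second block lay wholly above wt. Under the 5 other scalings tried, Cox8a stayed positive in these 5 comparisons and in both 5-month SOL blocks.

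The third pair differed between muscles. Cox7a1, the muscle form of subunit VIIa, fell in FDB at 5 months (-0.50 ± 0.17, adjusted p = 0.0107), where it had between 182 and 237 (median 203, n = 7) RPKM in mdx, against 293, 284, 287 and 292 RPKM in wt. Cox7a2, its counterpart, had a log2 difference of -0.15 ± 0.11 there and did not pass the test. The Cox7a2 share was 26.5% ± 0.554 in mdx and 24.6% ± 0.802 in wt FDB at 2 months and 35.6% ± 1.93 in mdx and 30.2% ± 1.02 in wt FDB at 5 months, and all mdx FDB libraries lay above all wt FDB libraries at both ages. It was 22.2% ± 0.988 in mdx and 21.5% ± 1.01 in wt EDL at 2 months and 22.2% ± 1.14 in mdx and 21.4% ± 1.02 in wt EDL at 5 months, and 21.1% ± 1.72 in mdx and 20.3% ± 0.617 in wt SOL at 2 months, with overlap in each. In SOL at 5 months it was 17.0% ± 1.06 in mdx libraries ns49 to ns53, wholly below wt, and 23.0% ± 1.38 in those from ns54, which overlapped wt, against 22.1% ± 1.54 in wt. Cox4i1, the common form of subunit IV, passed the test in none of the 5 comparisons outside 5-month SOL. Of the genes for subunit c of ATP synthase, which encode the same mature protein, Atp5g1 fell in FDB and EDL at both ages, by 0.28 to 0.37 on the log2 scale, whereas Atp5g2 and Atp5g3 passed in none of these 4. Ndufa4l2, a form of Ndufa4 known from hypoxia, rose in FDB at 5 months (0.47 ± 0.14, adjusted p = 0.0035) and fell in EDL at 2 months (-0.39 ± 0.16, adjusted p = 0.0371).

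**Figure D5:**
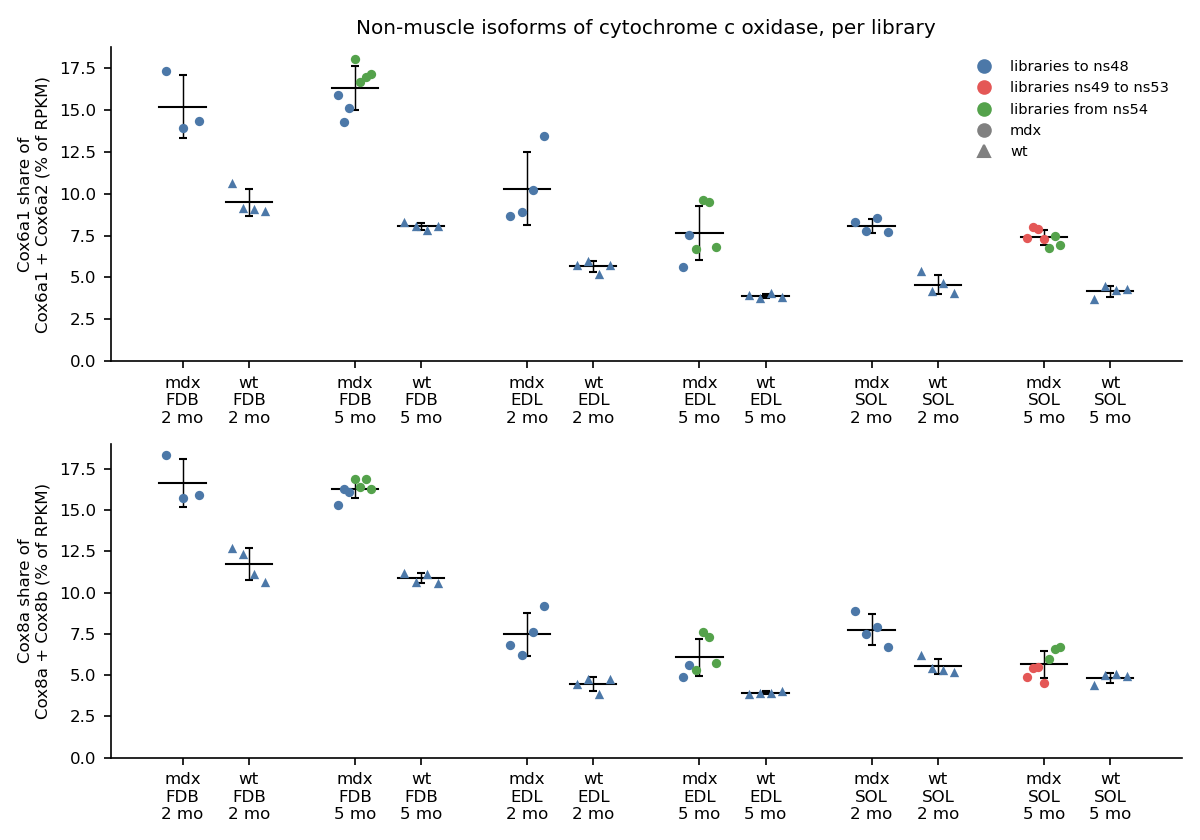
Share of the non-muscle form in the RPKM of its pair, in percent, for Cox6a1 (top) and Cox8a (bottom) in each library (circles for mdx, triangles for wt, coloured by block of library numbers), with the mean as a line and the SD as a bar. Mdx libraries lie above wt libraries of the same muscle and age in all 6 comparisons for Cox6a1, and in all but 5-month SOL for Cox8a.

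Of the 84 genes, 3 fell in all 6 comparisons of mdx with wt, the pooled 5-month SOL included, where 130 of 12541 genes did: Uqcc1, Atp5s and Atp5sl. None rose in all 6 (0 of 84), where 2169 genes did. None of the 3 encodes a subunit of a complex. Uqcc1, needed for the assembly of complex III, fell by 0.27 and 0.20 in FDB and 0.33 and 0.52 in EDL at 2 and 5 months and 0.37 in SOL at 2 months, and by 0.15 and 0.40 in the 5-month SOL blocks ns49 to ns53 and from ns54. In EDL at 5 months it had between 25.9 and 32.2 (median 29.1, n = 6) RPKM in mdx, against 38.2, 40.8, 47.0 and 41.7 RPKM in wt, without overlap (log2 difference -0.52 ± 0.06, adjusted p = 2.18e-09). Atp5sl, listed as Dmac2 in the GENCODE annotation and linked to the assembly of complex I, fell by 0.25 and 0.31 in FDB and 0.31 and 0.35 in EDL at 2 and 5 months and 0.32 in SOL at 2 months. Atp5s, known as coupling factor B, fell by 0.23 and 0.27 in FDB and 0.21 and 0.31 in EDL at 2 and 5 months and 0.21 in SOL at 2 months; in libraries ns49 to ns53 alone it had -0.14 ± 0.07 (adjusted p = 0.0793). Scaled to the fibre genes, none of the 3 passed in FDB at either age, with Uqcc1 at -0.13 and -0.01, and Atp5s passed in neither 2-month EDL nor 2-month SOL. Another 6 genes fell in 5 of the 6: Atp5c1, Cox6a2, Ndufs1, Ndufv1, Sdha and Sdhb. Altogether 14 genes were below 0 and 4 above 0 in all 6, and 7 were called in none. For the genes called in 5 of the 6, and for these signs and the genes called in none, the numbers over all genes are not given. Those counts describe the 84 genes only.

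The mdx effect was then compared between ages and muscles. Between 5 and 2 months it differed in 0 of 84 genes in both FDB and EDL, where 0.989% and 4.85% of all genes had a higher effect at 5 months and 0.351% and 1.07% a lower one; at an unadjusted p under 0.05 there were 1 higher and 0 lower in FDB and 2 higher and 0 lower in EDL. In SOL 20 genes had a higher and 1 a lower effect at 5 months (11% and 2.99% of all genes), and 0 and 1 without libraries ns49 to ns53. At 2 months no pair of muscles differed in its mdx effect in any of the 84 genes by limma; at an unadjusted p under 0.05 there were 0 higher and 0 lower for SOL against EDL, 0 higher and 3 lower for FDB against EDL and 0 higher and 2 lower for FDB against SOL. Of all genes tested, 0.654% were higher and 1.7% lower for SOL against EDL, 2.14% and 3.19% for FDB against EDL and 0.925% and 0.63% for FDB against SOL. These counts of 0 do not show that the mdx effect was alike between ages or muscles. The 5-month FDB group joins 2 blocks that differed from each other, with 52 genes lower and 1 higher from ns54. The spread used in the fit includes such differences between blocks. At 5 months the effect was higher in SOL than in EDL in 13 genes and lower in 1 (6.28% and 12.7%), and 0 and 7 without libraries ns49 to ns53. FDB against SOL gave 58 lower and 0 higher (12% and 13.7%), and 5 and 1 without those libraries. The shares of all genes in brackets are those of the fit with every library. Shares without libraries ns49 to ns53 are not given here. FDB against EDL at 5 months gave 3 lower and 1 higher (11.3% and 7.14%). The genes with the lower effect were Ndufs5, Ndufb3 and Uqcrc2, and the one with the higher was Uqcc1 (0.32 ± 0.09, adjusted p = 0.00942).

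Age alone moved few of the genes. From 2 to 5 months, wt FDB had 1 higher and 2 lower (6.33% and 27.3% of all genes), wt EDL 1 and 1 (2.57% and 21.2%) and wt SOL 1 and 0 (3.58% and 13.7%). Ndufa4l2 was lower at 5 months in wt FDB by 0.90 on the log2 scale and in wt EDL by 0.53 (adjusted p = 2.37e-05 and 0.0118). In wt FDB it had 3.47, 3.89, 4.37 and 4.82 RPKM at 5 months, against 9.12, 8.76, 6.27 and 10.7 RPKM at 2 months. Mdx FDB had 0 higher and 1 lower (2.42% and 3.46%), and mdx EDL 5 and 0 (6.0% and 11.6%). Ndufs5, an accessory subunit of complex I, was the gene lower in mdx FDB at 5 months (-0.47 ± 0.11) and was among those higher in mdx EDL (0.44 ± 0.11). The 65 genes higher and 2 lower in mdx SOL at 5 months (20.6% and 20.2%) became 4 and 3 without libraries ns49 to ns53. The shares of all genes without those libraries are not given here.

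Factors that drive the transcription of mitochondrial genes were read beside the subunits. Of a list of 16, 3 fell and 0 rose in FDB at 2 months, 6 fell and 3 rose in FDB at 5 months, 4 fell and 3 rose in EDL at 2 months, 5 fell and 2 rose in EDL at 5 months and 5 fell and 1 rose in SOL at 2 months, and in SOL at 5 months 7 fell and 3 rose in libraries ns49 to ns53 and 3 fell and 3 rose from ns54. Of all genes, 4.6% to 16.2% fell and 30.0% to 60.2% rose in these 7 comparisons. Perm1, a muscle regulator of PGC-1 and ERR activity, averaged 32.5 ± 6.23 RPKM in mdx EDL and 54.8 ± 4.55 RPKM in wt EDL at 5 months (SD, n = 6 and 4; log2 difference -0.75 ± 0.13, adjusted p = 1.33e-06). It fell by 0.51 and 0.53 in FDB and 0.69 and 0.75 in EDL at 2 and 5 months and 0.51 in SOL at 2 months, and by 0.58 and 0.51 in the SOL blocks ns49 to ns53 and from ns54. Esrrb and Esrrg, which encode estrogen-related receptors, fell in the same 5 comparisons, Esrrb by 0.37 and 0.37 in FDB and 0.49 and 0.96 in EDL at 2 and 5 months and 0.63 in SOL at 2 months and Esrrg by 0.43 and 0.43 in FDB and 0.62 and 0.70 in EDL at 2 and 5 months and 0.36 in SOL at 2 months. Esrra fell in EDL at both ages and in SOL at 2 months (-0.44, -0.23 and -0.28). Ppargc1a, the gene of PGC-1alpha, fell in FDB at 5 months (-0.71 ± 0.19, adjusted p = 0.00138) and had -0.03, -0.13, -0.24 and -0.22 in FDB at 2 months, EDL at 2 and 5 months and SOL at 2 months, which did not pass. Nrf1, the gene of NRF-1, rose in FDB and EDL at 5 months by 0.24 and 0.32, and Gabpb1 by 0.33 and 0.29.

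Genes of other mitochondrial membrane, carrier and import proteins were counted likewise. Of 25 such genes, 13 fell and 1 rose in FDB at 2 months, 16 fell and 2 rose in FDB at 5 months, 13 fell and 4 rose in EDL at 2 months, 12 fell and 4 rose in EDL at 5 months, 13 fell and 1 rose in SOL at 2 months and 14 fell and 3 rose in the 5-month SOL libraries from ns54, with medians between -0.18 and -0.12. Of all genes, 4.6% to 9.7% fell and 30.0% to 60.2% rose in these 6 comparisons. Ckmt2, the mitochondrial creatine kinase of muscle, fell by 0.57 and 0.57 in FDB and 0.44 and 0.79 in EDL at 2 and 5 months and 0.32 in SOL at 2 months. Its mean was 353 ± 40.4 RPKM in mdx EDL and 615 ± 114 RPKM in wt EDL at 5 months. The adenine nucleotide carriers of the list that exchange ATP for ADP and form another pair of isoforms parted: Slc25a4, the form of heart and muscle, fell by 0.32 and 0.41 in FDB and 0.22 and 0.30 in EDL at 2 and 5 months and 0.21 in SOL at 2 months, and Slc25a5, the form of dividing cells, rose by 0.63 and 0.55 in FDB and 0.95 and 0.71 in EDL at 2 and 5 months and 0.56 in SOL at 2 months. Slc25a5 averaged 52.2 ± 8.83 RPKM in mdx EDL and 26.3 ± 0.913 RPKM in wt EDL at 2 months (SD, n = 4 each; log2 difference 0.95 ± 0.13, adjusted p = 1.11e-07). In the 5-month SOL libraries from ns54 it had 0.21 ± 0.14 (adjusted p = 0.177).

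Of 44 assembly factors, 6 fell and 0 rose in FDB at 2 months, 14 fell and 0 rose in FDB at 5 months, 8 fell and 8 rose in EDL at 2 months, 13 fell and 6 rose in EDL at 5 months and 7 fell and 3 rose in SOL at 2 months. Of all genes, 4.6% to 9.46% fell and 30.0% to 60.2% rose in these 5 comparisons, and in EDL at 2 months, with its equal counts, 8.69% fell and 41.6% rose. Ndufaf6, a factor of complex I, fell by 0.43 and 0.36 in FDB and 0.43 and 0.49 in EDL at 2 and 5 months and 0.19 in SOL at 2 months; Atpaf1, which brings together the head of ATP synthase, by 0.26 and 0.25 in FDB and 0.32 and 0.46 in EDL at 2 and 5 months and 0.25 in SOL at 2 months; and Lrpprc, which stabilises mitochondrial mRNA, by 0.33 and 0.26 in FDB and 0.14 and 0.23 in EDL at 2 and 5 months and 0.16 in SOL at 2 months. Cox15, which makes heme a for complex IV, rose in EDL by 0.29 and 0.42 and in SOL at 2 months by 0.26. Of 6 subunits and partners that the symbols do not catch, 1 fell and 1 rose in FDB at 2 months and 3 fell and 1 rose at 5 months. The one that rose was Atpif1, the inhibitor that blocks ATP synthase from running in reverse, in all 5 comparisons outside 5-month SOL: by 0.44 and 0.74 in FDB and 0.74 and 1.0 in EDL at 2 and 5 months and 0.70 in SOL at 2 months. It rose by 1.45 and 0.78 in the SOL blocks ns49 to ns53 and from ns54. Its mean was 12.5 ± 0.898 RPKM in mdx EDL and 5.74 ± 0.290 RPKM in wt EDL at 5 months (log2 difference 1.0 ± 0.11, adjusted p = 2.8e-10). Cyc1, the cytochrome c1 subunit of complex III, fell in FDB by 0.32 and 0.28.

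Markers of other cells were higher in mdx muscle beside these results. Of 17 macrophage genes, 16 or 17 rose in each of the 6 comparisons, and their summed level was 632 to 1091 RPKM in mdx FDB, against 146 to 219.6 RPKM in wt FDB, at 5 months. Of all genes, 30.0% to 60.2% rose. Of 7 erythroid symbols, Hbb-b2 and Hbb-bt with the same values, 7 and 7 rose in FDB at 2 and 5 months, 0 and 1 in EDL and 7 in SOL at 2 months. Of 8 adipocyte genes, 0 and 6 rose in FDB at 2 and 5 months, 1 and 6 in EDL and 1 in SOL at 2 months, where 1 fell. At 2 months the gene that rose in EDL and in SOL was Car3 (log2 differences 1.02 and 0.68), while Adipoq, Cfd and Plin1 passed in neither. In wt mice at 2 months Car3 stood 5.18 higher in FDB and 2.95 higher in SOL than in EDL. Of 12 fibroblast and matrix genes, 8 to 12 rose and 1 fell in EDL at 2 months, and of 10 genes of regenerating fibres 8 to 10 rose. None of the macrophage or fibroblast genes was at 0 in any library (0 of 17 and 0 of 12). Their part in the differences of the respiratory genes, and of the isoform shares, was not tested.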

How the data were processed

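Poly(A) RNA of dissected muscles was sequenced, per the labels' protocols. The FDB, EDL and SOL libraries of mdx and wt mice were analysed from 1 table of RPKM values that the authors deposited for 55 libraries, per the file headers; TopHat2 2.1.0, CASAVA 1.8.2 and Partek 6.6 are listed, without roles, in the submitters' processing notes, and no settings are stated. RPKM are not counts, so no count model was used. Values were taken as log2(RPKM + 1), genes averaging 0.5 RPKM or more were kept (12541 of 24453), and 12 group means were fitted to all 55 libraries with limma 3.58.1 (R 4.3.3), with a trend on the mean and Benjamini-Hochberg adjustment over all genes within each comparison, at 0.05. Columns were assigned to groups by name, and no label ties a library to a numbered sample. Genes were named by rule: isoform families, complex II and the Uqcc genes, the largest called differences in each complex and comparison, genes called in all 6 comparisons of mdx with wt, the most abundant genes, and from each list some of the 4 largest called differences in a comparison. The members and lists were chosen with earlier results of these data known. Depth was read from the steps between low values and ranged from 20.1 to 66.3 M reads. Coding lengths are from GENCODE M21 (GRCm38). The fit was tested on simulated data. Alternatives were other pseudocounts, filters, scalings and length trends, fits of only the groups compared, each library left out, and the blocks of library numbers.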

Additional observations from a re-analysis of the deposited data

Results flagged for a closer look

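In 16 of 451 groups of values, 1 library lay far from the rest of its group, where chance gives about 1 in 20; 12 libraries were involved. The summed level of the 87 genes was 18620.0 RPKM in library ns34 of 2-month mdx EDL, against 17538 to 17684 RPKM in the other 3. The share of Cox6a1 in its family was 10.7% in library ns09 of 2-month wt FDB, against 8.99 to 9.17% in the other 3. The share of Atp5g2 in its family was 18.8% in library ns53 of 5-month mdx SOL, against 15.7 to 17.0% in the other 6. The share of Atp5g3 in its family was 53.6% in library ns20 of 2-month mdx SOL, against 56.2 to 56.5% in the other 3. Atp5g1 was 264 RPKM in library ns14 of 5-month wt FDB, against 293 to 295 RPKM in the other 3. Atp5l was 295 RPKM in library ns40 of 5-month mdx EDL, against 331 to 351 RPKM in the other 5. Atp5sl was 5.95 RPKM in library ns06 of 5-month mdx FDB, against 7.49 to 8.51 RPKM in the other 6. Cox6b1 was 298 RPKM in library ns12 of 2-month wt FDB, against 263 to 268 RPKM in the other 3. Cox6b1 was 272 RPKM in library ns65 of 5-month mdx EDL, against 307 to 321 RPKM in the other 5. Cox6b1 was 298 RPKM in library ns43 of 2-month wt EDL, against 277 to 279 RPKM in the other 3. Cox7a2l was 102 RPKM in library ns05 of 5-month mdx FDB, against 81.5 to 89.0 RPKM in the other 6. Cox8b was 518 RPKM in library ns43 of 2-month wt EDL, against 452 to 458 RPKM in the other 3. Ndufa4l2 was 8.05 RPKM in library ns26 of 2-month wt SOL, against 8.69 to 8.73 RPKM in the other 3. Sdhb was 181 RPKM in library ns12 of 2-month wt FDB, against 152 to 154 RPKM in the other 3. Sdhd was 161 RPKM in library ns20 of 2-month mdx SOL, against 176 to 179 RPKM in the other 3. Uqcc3 was 41.0 RPKM in library ns53 of 5-month mdx SOL, against 22.4 to 29.6 RPKM in the other 6. The mdx effect differed by the test of the difference itself in 21 genes between 5 and 2 months in SOL, and at 5 months in 14 genes between SOL and EDL, 4 between FDB and EDL and 58 between FDB and SOL; the counts that include SOL rest on libraries ns49 to ns53, as given above, since without them they were 1, 7 and 6.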

How the results depend on the processing

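With median-of-ratios scaling, the counts were, for genes lower in 2-month FDB 51, 5-month FDB 80, 2-month EDL 42, 5-month EDL 58, 2-month SOL 36, FDB against EDL 1, 2-month wt FDB minus EDL 63, 5-month wt FDB minus EDL 69, FDB to ns48 70, EDL to ns48 70, EDL from ns54 75 and SOL from ns54 78, and for genes higher in pooled 5-month SOL 8, the SOL genotype by age term 3, the 5-month effect in SOL against EDL 29 and 5-month wt SOL minus EDL 32. Signs turned for Cox7a2 in 5-month EDL (-0.28), Ndufa13 in 5-month EDL (-0.052), Sdhd in 5-month EDL (-0.36), Uqcc3 in 5-month EDL (-0.11) and Uqcc3 in 5-month FDB (-0.24). With quantile normalization, the counts were, for genes lower in 2-month FDB 46, 5-month FDB 72, 2-month EDL 35, 5-month EDL 34, FDB against EDL 19, 2-month wt FDB minus EDL 63, 5-month wt FDB minus EDL 66, FDB to ns48 58 and EDL from ns54 41, and for genes higher in pooled 5-month SOL 24, the SOL genotype by age term 5, 2-month wt SOL minus EDL 31, 5-month wt SOL minus EDL 23, mdx EDL over age 11 and mdx SOL over age 36. Signs turned for Cox4i2 in 5-month FDB (-0.25) and Sdhd in 5-month EDL (-0.15). Scaled to the fibre genes, the counts were, for genes lower in 2-month FDB 0, 5-month FDB 0, 2-month EDL 3, 2-month SOL 2, FDB against EDL 0, FDB against SOL 12, FDB to ns48 3, FDB from ns54 18, FDB from ns54 minus to ns48 21 and EDL to ns48 17, and for genes higher in the SOL genotype by age term 0, the 5-month effect in SOL against EDL 3, mdx EDL over age 1 and mdx SOL over age 42. Signs turned for Sdhd in 5-month FDB (0.064). With the transcript length trend removed, the counts were, for genes lower in 2-month FDB 58, 5-month FDB 79, 2-month EDL 50, 5-month EDL 52, 2-month SOL 49, FDB against EDL 5, 2-month wt FDB minus EDL 66, 5-month wt FDB minus EDL 66, FDB to ns48 74, EDL to ns48 58, EDL from ns54 68 and SOL from ns54 77, and for genes higher in pooled 5-month SOL 7, the SOL genotype by age term 3, mdx EDL over age 10 and SOL ns49 to ns53 31. Signs turned for Sdhd in 5-month EDL (-0.26), Uqcc3 in 5-month EDL (-0.013) and Uqcc3 in 5-month FDB (-0.17). With the coding length trend removed (chosen after seeing the data), the counts were, for genes lower in 2-month FDB 63, 5-month FDB 79, 2-month EDL 54, 5-month EDL 54, 2-month SOL 53, FDB against EDL 10, 2-month wt FDB minus EDL 65, 5-month wt FDB minus EDL 70, FDB to ns48 76, EDL to ns48 59, EDL from ns54 67 and SOL from ns54 75, and for genes higher in pooled 5-month SOL 8, the SOL genotype by age term 3, mdx EDL over age 12 and SOL ns49 to ns53 27. Signs turned for Sdhd in 5-month EDL (-0.25) and Uqcc3 in 5-month FDB (-0.15). With the 5-month mdx groups split by library number (also chosen after seeing the data), the counts were, for genes lower in 2-month FDB 61, 2-month EDL 32, 2-month SOL 31 and 2-month wt FDB minus EDL 49. Fitting only the groups compared, the counts were, for genes lower in 2-month FDB 58, 2-month EDL 31 and 2-month SOL 30, and for genes higher in pooled 5-month SOL 6. Without libraries ns49 to ns53, the counts were, for genes lower in FDB against SOL 5, and for genes higher in pooled 5-month SOL 3, the SOL genotype by age term 0, the 5-month effect in SOL against EDL 0 and mdx SOL over age 4. Without the filter on low values, the counts were, for genes higher in the SOL genotype by age term 6 and the 5-month effect in SOL against EDL 8. With only the mdx libraries from ns54, 72 were lower in 5-month FDB and 3 higher in 5-month SOL; with only those to ns48, 26 were lower in 5-month EDL; with only ns49 to ns53, 66 were higher in 5-month SOL. Leaving out each of the 55 libraries in turn gave, for the counts it moved by over 1.5 times, 8 to 22 lower in 2-month FDB, 8 to 16 lower in 2-month EDL, 8 to 19 lower in 5-month EDL, 5 to 13 lower in 2-month SOL, 6 to 48 higher in the SOL genotype by age term, 5 to 41 higher in the 5-month effect in SOL against EDL, 1 to 4 lower in FDB against EDL, 1 to 6 higher in mdx EDL over age, 23 to 33 lower in FDB to ns48, 10 to 34 lower in EDL to ns48 and 16 to 28 lower in EDL from ns54; a lone library left in a group is assumed to vary like the others. Over all settings, 2277 values of named genes kept direction and call, 162 lost the call, 152 gained it and 13 turned sign. The cause of these shifts was not tested. Counts over all genes under these settings, apart from the blocks given above, are not given here. A pseudocount of 0.1 and a mean of at least 5 RPKM moved none of the counts listed here by over 1.5 times. No paired analysis was possible because the library columns show the group but no label ties a library number to a numbered sample. Depth limits low genes most, and the depths were read from steps in the values, with 65.8% to 75.8% of low values within 0.1 read of a whole number.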
